A study of Mus musculus with 8 samples.

Results

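The 10 genes described here encode the 5 NF-κB subunits (*Nfkb1*, *Nfkb2*, *Rel*, *Rela* and *Relb*) and 5 inhibitors or regulators of the pathway (*Nfkbia*, *Nfkbib*, *Nfkbie*, *Nfkbiz* and *Tnfaip3*). They were chosen by name out of 32285 genes in the count matrices, and no rule on measured values was used. Earlier results of these data were known at that choice. All 10 passed the minimum of 100 unique molecular identifiers (UMIs, which count each captured RNA molecule once) in every comparison of whole groups below. Each was followed in CD45+CD11b+Ly6Chi cells sorted from MC38 tumors or from the blood of MC38-bearing mice, MC38 being a murine colon carcinoma line grown under the skin. Tumors were left untreated (control) or received a single local dose of 20 Gy (IR), and cells were taken 3 days after IR. Mice were male and female, 8 to 10 weeks of age, with 5 mice pooled per group. They were *Ythdf2* fl/fl (WT) or *Lyz* Cre; *Ythdf2* fl/fl (*Ythdf2*-cKO), so the floxed allele was shared by all groups and Cre came from the lysozyme locus, which is active in myeloid cells and not in one cell type alone. YTHDF2 is a reader of m6A, a methyl mark on RNA.

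One library each was made from the tumors and from the blood of untreated and of irradiated mice, 4 in all, and each held WT cells marked with hashtag antibody B0301 and cKO cells marked with B0302, which gave 8 groups of 1 pool each. Cells with at least 20 hashtag UMIs were called WT where B0301 was at least equal to B0302, and cKO where B0302 was at least 4 times B0301. This left 2525 WT and 2161 cKO cells in tumor control, 3134 and 3789 in tumor IR, 4608 and 3795 in blood control, and 4067 and 3361 in blood IR, with 18864995 to 24961034 gene UMIs per group. Cells with mixed hashtags could enter WT but not cKO under this rule. B0301 was at least 2 times B0302 in 2104 WT cells of tumor control, 2992 of tumor IR, 4534 of blood control and 4010 of blood IR. With 1 pool per group there were no replicates and no test was possible. Intervals given below are 95% exact Poisson intervals for a level and exact conditional binomial intervals for a ratio, and they cover counting error only. WT and cKO cells of a library were processed together, whereas IR and control were in different libraries, so treatment and library cannot be told apart.

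The hashtag labels were checked with 2 genes. *Lyz2*, whose locus carries Cre, was at 5617 to 14137 CPM (UMIs of a gene scaled to 1000000 gene UMIs per group) in the groups labelled WT and at 81.3 to 138 CPM in those labelled cKO. *Ythdf2* UMIs were higher in the groups labelled cKO (303 to 372 CPM) than in those labelled WT (33.3 to 55.3 CPM), which goes against the label if these 3′ tags stand for intact transcripts. A 3′ tag outside the deleted part does not check a deletion, and groups are therefore called by their label. *Lyz2* in the RNA of barcodes without cells reached 2842 CPM or more, and its level in cells labelled cKO was 1.27% to 3.36% of that, which caps the share of free RNA in these cells. The 2 tumor matrices overlapped: every kept barcode of one also held gene UMIs in the other, at a median of 45.4% to 59.0% of its own count, while its hashtag UMIs there were 0.526% to 1.04% of its own. Between 7 and 33 kept barcodes were shared by a pair of libraries.

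NF-κB works as dimers of its subunits. RELA, c-Rel (the product of *Rel*) and RELB carry transactivation domains, whereas *Nfkb1* and *Nfkb2* encode precursors that are processed into DNA-binding subunits. In resting cells IκBα (*Nfkbia*), IκBβ (*Nfkbib*) and IκBε (*Nfkbie*) hold dimers in the cytoplasm until IκB kinase triggers their degradation. IκBζ (*Nfkbiz*) acts in the nucleus as a cofactor of secondary response genes, and *Tnfaip3* encodes a ubiquitin-editing enzyme that damps signaling upstream of the kinase. *Nfkbia*, *Nfkbie*, *Nfkbiz* and *Tnfaip3* are known to be induced by NF-κB itself in myeloid cells and thus form feedback loops.

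The promoters of a few members, picked after their values were seen, are shown. *Nfkbia* and *Tnfaip3* differed together in several comparisons below, *Nfkbie* differed in another pattern, and *Rela* varied least between tissues. The sequences are the 250 bases before a RefSeq start site (GRCm38.p6), read 5′ to 3′ on the strand of the gene, with matches to the NF-κB (κB) consensus on either strand in capitals. They lie at chr12:55492648-55492897 (minus strand) for *Nfkbia*, chr10:19015411-19015660 (minus strand) for *Tnfaip3*, chr17:45555450-45555699 (plus strand) for *Nfkbie* and chr19:5637291-5637540 (plus strand) for *Rela*.
Nfkbia: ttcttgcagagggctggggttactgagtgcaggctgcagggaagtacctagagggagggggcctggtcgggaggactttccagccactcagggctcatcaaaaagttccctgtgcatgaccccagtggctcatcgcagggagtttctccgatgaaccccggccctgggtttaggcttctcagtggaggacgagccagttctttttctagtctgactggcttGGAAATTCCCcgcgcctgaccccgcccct
Tnfaip3: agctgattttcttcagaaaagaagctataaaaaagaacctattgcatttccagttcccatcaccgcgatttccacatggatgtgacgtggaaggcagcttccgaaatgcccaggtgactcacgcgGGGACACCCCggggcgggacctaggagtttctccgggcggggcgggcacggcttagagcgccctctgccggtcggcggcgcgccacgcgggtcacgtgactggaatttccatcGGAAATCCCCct
Nfkbie: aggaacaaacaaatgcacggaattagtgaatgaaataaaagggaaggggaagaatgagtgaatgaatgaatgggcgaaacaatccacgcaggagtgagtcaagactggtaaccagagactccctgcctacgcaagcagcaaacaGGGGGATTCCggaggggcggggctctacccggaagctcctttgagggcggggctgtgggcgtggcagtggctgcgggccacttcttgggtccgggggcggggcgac
Rela: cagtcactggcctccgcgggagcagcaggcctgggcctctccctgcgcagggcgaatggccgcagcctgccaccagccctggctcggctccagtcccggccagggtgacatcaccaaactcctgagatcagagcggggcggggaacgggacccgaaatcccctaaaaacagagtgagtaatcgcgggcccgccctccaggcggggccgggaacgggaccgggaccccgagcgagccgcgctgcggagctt
The match began at −29 from the start site for *Nfkbia*, at −125 and −12 for *Tnfaip3* and at −106 for *Nfkbie*, and the window of *Rela* held none. The start site of *Tnfaip3* shown was chosen after its matches were seen, since another RefSeq start site of the gene had 0 matches. In the GENCODE annotation *Tnfaip3* starts at chr10:19015657 (minus strand), so nearly all of its window lies inside the gene. *Rela* starts at chr19:5637483 there, so the last part of its window does too. In windows of 300 bases (250 before and 50 after the start), 5 of the 7 members in the RefSeq table had a match (*Nfkb2*, *Rel*, *Nfkbia*, *Nfkbie*, *Tnfaip3*), and *Rela* and *Nfkbib* had none. A match in at least 1 start site was held by 9.55% of 27025 genes, and 8.46% of 32851 promoters held one. *Nfkb2* and *Rel* held matches but stayed inside the limit used below in every whole-group comparison of IR with control and of cKO with WT. A match describes letters in a window and is neither a bound site nor a cause. *Nfkb1*, *Relb* and *Nfkbiz* were not among the promoters used here.

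Among the subunits, *Rel* and *Nfkb1* gave the most UMIs over all kept cells (34267 and 32481), followed by *Nfkb2* (10940), *Rela* (10401) and *Relb* (6085). Among the inhibitors, *Nfkbia* gave 230660 UMIs, more than the other 9 members each, followed by *Nfkbiz* (53960), *Tnfaip3* (30088), *Nfkbie* (17237) and *Nfkbib* (10293). Each captured molecule is counted once at its 3′ end, so transcript length does not enter these counts. Whether 3′ capture differed between genes was not tested, so the order is one of UMIs. *Nfkb2*, *Rela* and *Nfkbib* lay close together and their order is not fixed across groups.

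The level of *Nfkbia* in blood was 705 CPM in control WT, 692 in control cKO, 750.1 in IR WT and 413 in IR cKO. In tumor it was 1802, 2399.9, 2064 and 1656 CPM in the same order. The IR cKO group was thus the lowest of the 4 in each tissue, and the control cKO group of tumor was the highest of all 8. *Tnfaip3* in blood was at 94.8 CPM in control WT, 55.3 in control cKO, 77.7 in IR WT and 34.0 in IR cKO, and in tumor at 249, 371, 243 and 228 CPM. As for *Nfkbia*, IR cKO was lowest in both tissues and tumor control cKO highest.

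*Nfkbiz* in blood was at 342 CPM in control WT, 252 in control cKO, 263 in IR WT and 190.1 in IR cKO, and in tumor at 290.0, 482, 342 and 315 CPM. Its level in tumor control WT was below that in blood control WT (log2 ratio −0.24), but with macrophage-like, monocyte-like and nonclassical monocyte-like cells alone it was above it (1.09). *Nfkbie* in blood was at 27.9, 23.1, 23.5 and 20.4 CPM in that order, and in tumor at 171, 121, 187 and 203 CPM. Its tumor and blood groups lay furthest apart of all members, and here tumor control cKO was the lowest tumor group. *Nfkbib* stayed within 38.9 to 40.6 CPM in blood and 73.4 to 82.7 CPM in tumor.

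Among the subunits, *Rel* varied most. It was at 113, 97.0, 99.7 and 83.9 CPM in blood (control WT, control cKO, IR WT, IR cKO) and at 292, 265, 304 and 307 CPM in tumor. *Nfkb1* ranged from 129 to 147 CPM in blood and from 220.5 to 242 CPM in tumor, *Nfkb2* from 43.6 to 54.7 and from 73.0 to 81.3 CPM, and *Relb* from 24.0 to 28.3 and from 38.1 to 48.8 CPM. *Rela*, which encodes the most studied transactivating subunit, lay between 52.5 and 65.6 CPM in all 8 groups.

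**Figure D1:**
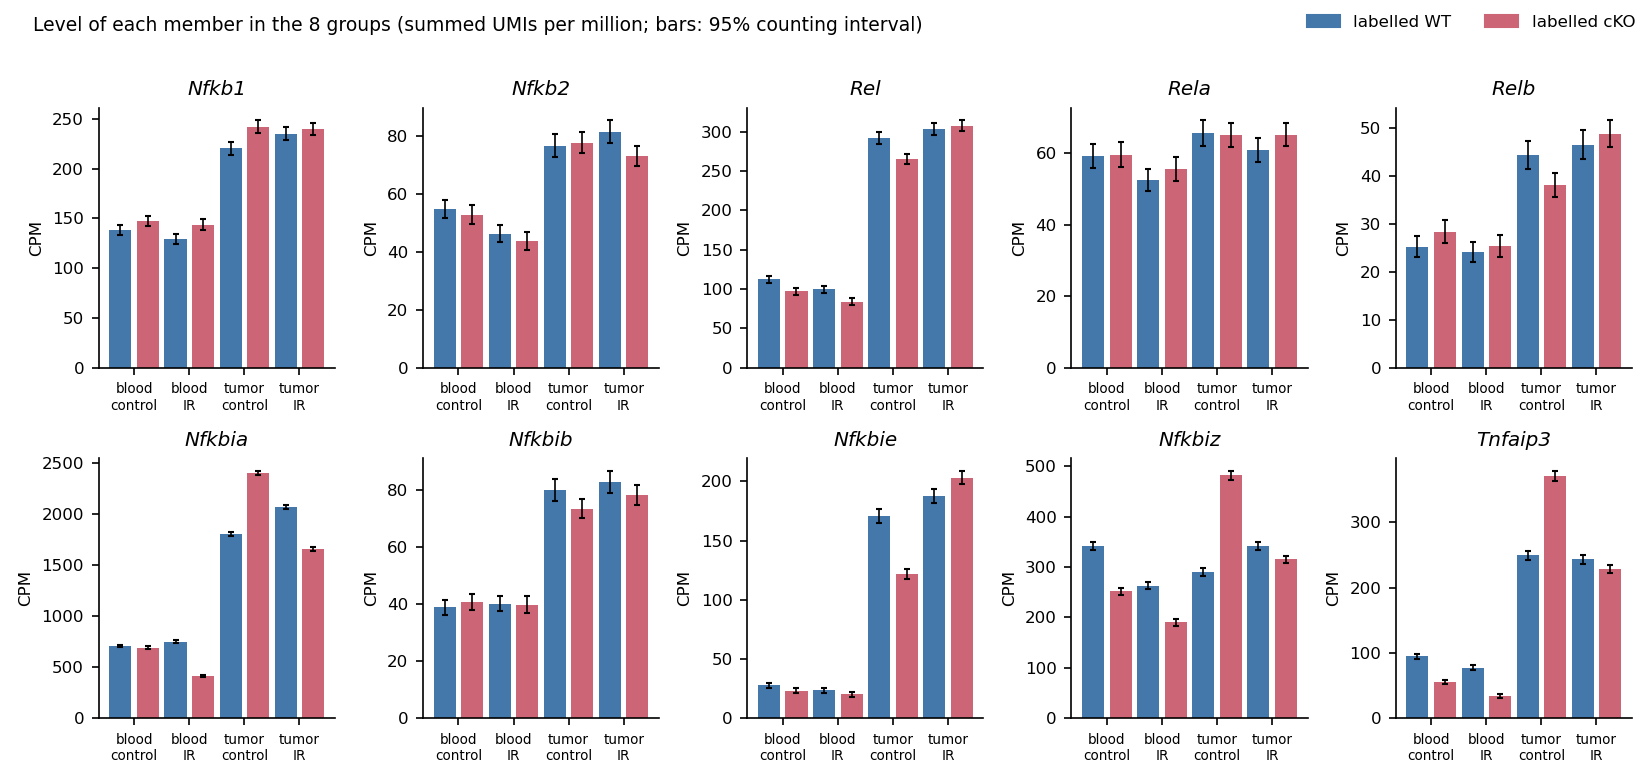
Level of each of the 10 members in CPM (vertical axis from 0) in the 8 groups, with groups labelled WT in blue, groups labelled cKO in red and lines for the 95% counting interval of 1 pool. *Nfkbie* reaches 121 to 203 CPM in tumor against 20.4 to 27.9 CPM in blood, whereas *Rela* stays between 52.5 and 65.6 CPM.

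Comparisons used a fixed limit: an absolute log2 ratio of CPM of at least 0.5, an interval of the ratio that does not hold 0, and at least 100 UMIs over both groups. The share of all genes past the same limit is given beside the counts. Because counting intervals do not hold variation between mice, a value past the limit describes these pools and not the conditions.

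The first comparison asked how these cells in tumors differ from those in blood. Of the 10 members, 7 were higher in tumor past the limit in control WT, where 34.6% of all genes were higher, and 8 in control cKO, where 41% were. The count was 8 in IR WT against 25.9% of all genes and 9 in IR cKO against 25.8%, and no member was lower past the limit in any of the 4. The members' median log2 ratio was 0.92, 0.90, 0.997 and 0.96, beside 0.11, 0.23, −0.08 and −0.09 over all genes. *Nfkbie* had the largest ratio in 3 of the 4, with log2 ratios of 2.61 in control WT, 2.39 in control cKO, 2.99 in IR WT and 3.32 in IR cKO (6.12-, 5.25-, 7.94- and 9.96-fold). *Tnfaip3* (1.39, 2.74, 1.65 and 2.74), *Nfkbia* (1.35, 1.80, 1.46 and 2.004) and *Rel* (1.38, 1.45, 1.61 and 1.87) were also higher in all 4. *Rela* differed by 0.13 to 0.23 and did not reach the limit in any.

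The tissues were then compared within cell types of the same name, given from marker genes as described below. Nonclassical monocyte-like cells of tumor and blood differed in such markers and were not shown to be the same type. The same holds for monocyte-like cells. Their tumor cluster was led by interferon-response genes such as *Ifit2* and *Rsad2*, and the larger blood cluster by *F13a1* and *Chil3*. In nonclassical monocyte-like cells 7, 9, 7 and 6 members were higher in tumor in control WT, control cKO, IR WT and IR cKO, where 12.7%, 11.4%, 12.7% and 13.3% of genes were higher. In monocyte-like cells after IR 9 were higher in WT and 9 in cKO, where 19.4% of genes were in each. In neutrophil-like cells 9 were higher in both, where 15.3% and 16.4% of genes were. With macrophage-like, monocyte-like and nonclassical monocyte-like cells summed and all others left out, a choice made after the data were seen, the counts were 5, 7, 7 and 6, where 19.5%, 21.3%, 17.5% and 18.9% of genes were higher. *Nfkb1* in that setting was inside the limit in control WT, IR WT and IR cKO (0.33, 0.46 and 0.31, beside 0.67, 0.86 and 0.74 over all cells). In monocyte-like cells after IR, *Nfkbie* was at 17.1 CPM in blood and 243 in tumor in WT, and at 14.6 and 248 in cKO (log2 ratio 3.81 [3.55, 4.11] and 4.07 [3.78, 4.40]). In neutrophil-like cells after IR, *Nfkbia* was at 1213 CPM in blood and 7233 in tumor in WT and at 614 and 5632 in cKO (2.58 and 3.20). Nonclassical monocyte-like cells gave *Nfkbie* log2 ratios of 2.45 in control WT, 2.57 in control cKO, 1.88 in IR WT and 2.21 in IR cKO. Tumor and blood were in different libraries, so tissue and library cannot be told apart.

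The next question was how IR changed the members. In tumors of WT mice no member passed the limit, where 24.9% of all genes did, and log2 ratios of IR to control ran from −0.11 (*Rela*) to 0.24 (*Nfkbiz*). In blood of WT mice again none passed, where 6.32% of genes did, and the largest difference was that of *Nfkbiz* (−0.38 [−0.43, −0.33]).

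In cells labelled cKO, 4 members passed the limit in tumor: *Nfkbie* was higher after IR (0.74 [0.68, 0.81]), and *Tnfaip3* (−0.70 [−0.75, −0.65]), *Nfkbiz* (−0.61 [−0.65, −0.57]) and *Nfkbia* (−0.54 [−0.55, −0.52]) were lower. This was 4 of 10 where 47.8% of all genes passed, so the count itself is near the background. The split depended on scaling. With TMM factors the median over all genes moved from −0.18 to 0.03, and 2 members passed as higher (*Nfkbie* 0.95 and *Relb* 0.56) and 0 as lower, with *Tnfaip3* at −0.50, *Nfkbiz* at −0.40 and *Nfkbia* at −0.33. In blood of cKO mice, *Nfkbia* (−0.74 [−0.78, −0.70]) and *Tnfaip3* (−0.70 [−0.85, −0.56]) were lower after IR, 2 of 10 where 7.62% of genes passed. Whether the difference between IR and control itself differed between WT and cKO was not tested.

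The study addresses the link between YTHDF2 and NF-κB signaling, for which cKO and WT cells of the same library were compared. In blood after IR the cKO-labelled cells had less *Tnfaip3* than the WT-labelled cells (log2 ratio −1.19 [−1.33, −1.06], 0.44-fold) and less *Nfkbia* (−0.86 [−0.90, −0.82], 0.55-fold). These 2 of 10 stood beside 3.65% of all genes past the limit, and *Nfkbiz* lay just inside it (−0.47). In blood control *Tnfaip3* alone passed (−0.78 [−0.89, −0.67]) where 8.19% of genes did, with *Nfkbiz* at −0.44 and *Nfkbia* at −0.03. In tumor control the direction was the opposite: *Nfkbiz* (0.73 [0.69, 0.78]) and *Tnfaip3* (0.57 [0.52, 0.62]) were higher in cKO where 22.8% of genes passed, with *Nfkbia* at 0.41 and *Nfkbie* at −0.49 just inside the limit. In tumor IR no member passed, where 5.92% of genes did, and *Nfkbia* had the largest difference (−0.32 [−0.34, −0.30]). The subunits *Nfkb1*, *Nfkb2*, *Rel*, *Rela* and *Relb* had log2 ratios of cKO to WT no lower than −0.25 (*Rel* in blood IR) and inside the limit in all 4 settings. With TMM factors, *Nfkbiz* in blood IR (−0.515) and *Nfkbie* in tumor control (−0.556) were past the limit. With gene UMIs read from the other tumor matrix, *Nfkbie* in tumor control was past the limit (−0.52) and *Nfkbia* in cKO tumors after IR just inside it (−0.497). Without the barcodes kept in more than 1 library, 3 members in place of 2 passed in tumor control, again with *Nfkbie* added. In other settings *Nfkbie* in tumor control lay further inside the limit. It was at −0.29 without the fibroblast-like cells described below, and at −0.34 with macrophage-like, monocyte-like and nonclassical monocyte-like cells alone.

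Genes that respond to stress and tissue handling moved with some of these differences. Of 12 such genes (*Fos*, *Fosb*, *Jun*, *Junb*, *Egr1*, *Atf3*, *Ier2*, *Dusp1*, *Zfp36*, *Hspa1a*, *Hspa1b*, *Hsp90aa1*, a list chosen after the data were seen), 7 were lower in cKO than in WT in blood control and 4 in blood IR, with medians of −0.59 and −0.36. Of all genes, 8.19% and 3.65% passed there. In tumor control 1 of the 12 was higher in cKO and 2 were lower (*Hspa1a* −1.30 and *Hspa1b* −1.14), where 22.8% of all genes passed. The summed level of the 12 in blood was 17453 CPM in control WT, 11120 in control cKO, 11064 in IR WT and 8863 in IR cKO. In tumor it was 6687, 7864, 7046 and 6270 CPM, and the 4 tumor groups stood in the same order as for *Nfkbia*. After IR 4 of the 12 were lower and 1 higher in cKO tumors, a smaller share than the 47.8% of all genes that passed. In cKO blood 5 were lower after IR, where 7.62% of all genes passed. In WT blood 10 were lower, where 6.32% of all genes passed, while *Nfkbia* was at 0.09. The part of handling in these differences was not tested.

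**Figure D2:**
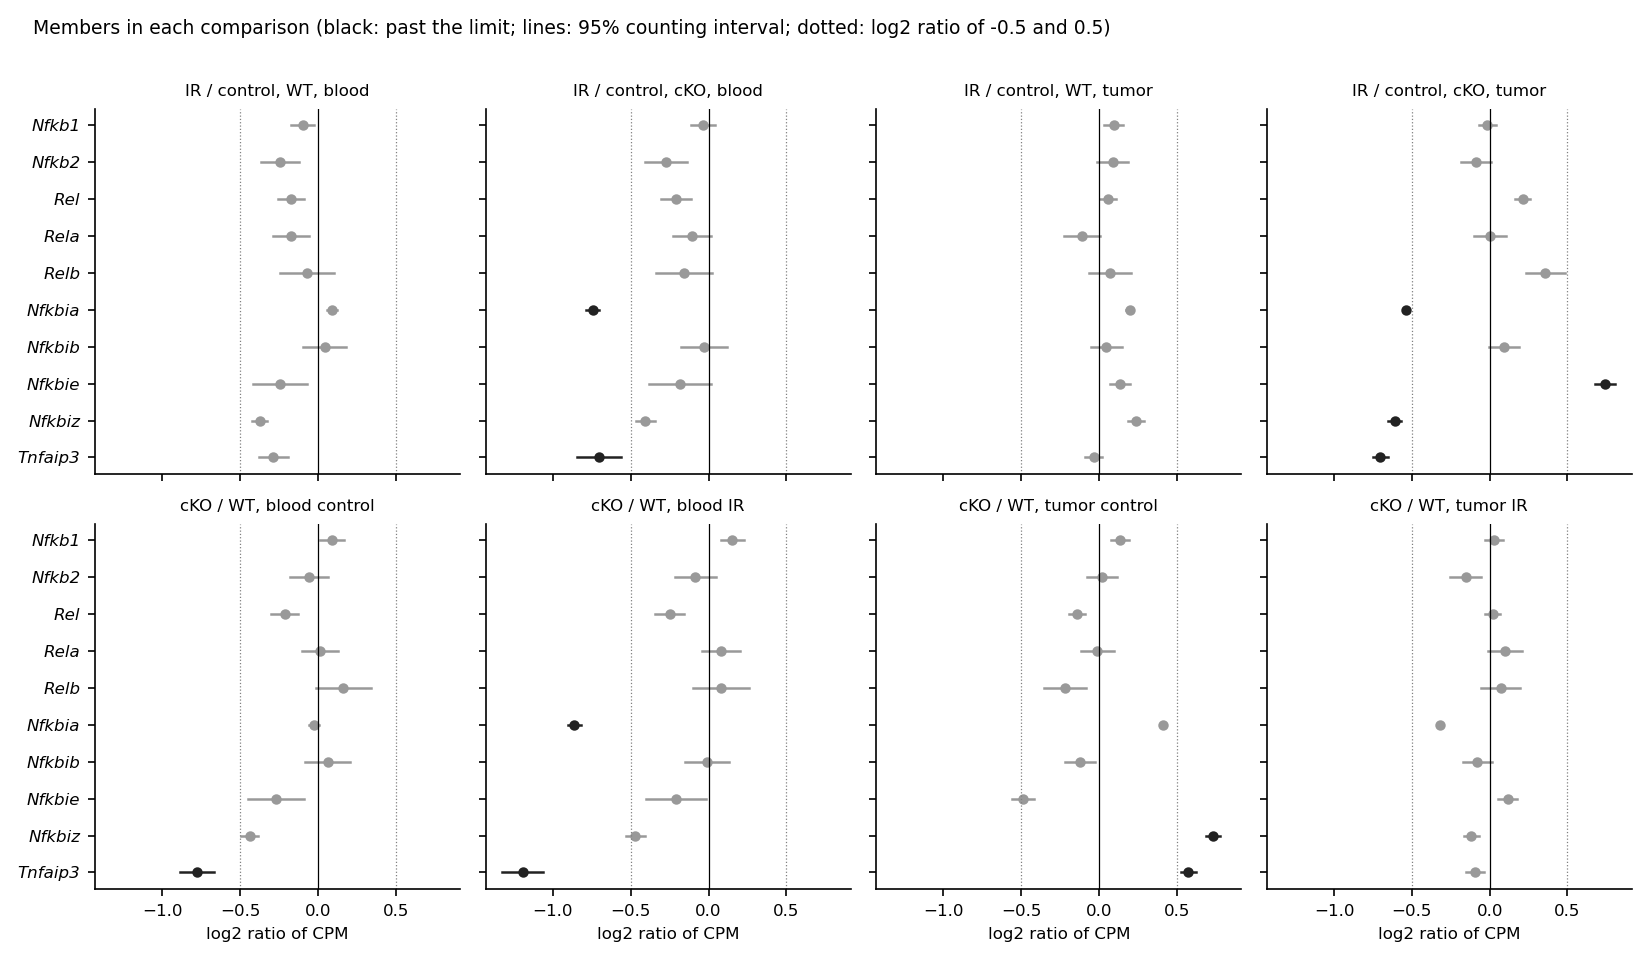
Log2 ratio of CPM (horizontal axis) for the 10 members in the IR to control and cKO to WT comparisons, with black for values past the limit and dotted lines at −0.5 and 0.5. The members past the limit in these 8 comparisons are *Nfkbia*, *Nfkbie*, *Nfkbiz* and *Tnfaip3*, and none is a subunit, except that *Relb* passes in cKO tumors after IR (0.56) with TMM scaling.

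Whole-group levels mix cell types, so the types were separated next. Cells were clustered within each tissue without the members, the pathway lists, *Ythdf2*, *Lyz1* and *Lyz2*, and clusters were named from marker genes. Blood cells were 66.6% to 70.8% neutrophil-like, 10.1% to 14.1% monocyte-like and 11.04% to 18.2% nonclassical monocyte-like. Tumor cells were 34.8% to 55.3% macrophage-like. Monocyte-like cells held 1.25% and 0.296% of UMIs in tumor control WT and cKO and 17.0% and 15.1% after IR. Fibroblast-like cells (*Col3a1*, *Sparc*, *Dcn*) held 16.8% and 30.5% of UMIs in tumor control WT and cKO, and 9.64% and 5.57% after IR. In their larger cluster 8.90% of cells had a UMI of *Ptprc*, which encodes CD45, so these cells go against the sort. *Col1a1* was at 110 CPM in that cluster, and the epithelial genes *Epcam*, *Krt8* and *Krt18* were at 0 CPM. Whether these cells were fibroblasts or cells of the MC38 line was not tested. If they were MC38 cells, their hashtag would name the mouse and not their own genotype. Of the cells in the 5 largest neutrophil-like clusters of blood, 9.88% to 33.6% had a UMI of *Ly6c2*, which encodes part of Ly6C, against 99.5% in the larger monocyte-like cluster. The nonclassical monocyte-like cluster of tumor was named from *Ace*, *Adgre4* and *Dusp16*, but its leading genes were interferon-response genes such as *Cxcl10*, *Socs1* and *Irf1*. *Ly6c2* was at 1155 CPM in it, against 917 CPM in the larger and 160 CPM in the smaller blood cluster of that name. *Ear2*, a nonclassical marker, was at 93.0 CPM in it and at 153 and 647 CPM in those blood clusters. Comparisons of tumor with blood under this name may therefore set unlike cells side by side. A total of 1943 tumor cells lay in 2 unnamed clusters.

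Each member had its own profile across types. *Nfkbia* was highest in tumor neutrophil-like cells after IR (7233 CPM in WT and 5632 in cKO), lay between 1449 and 2259 CPM in macrophage-like cells and was at 634 to 832 CPM in tumor NK cell-like cells. In blood it was higher in neutrophil-like cells (614 to 1213 CPM) than in monocyte-like cells of the same group (248 to 593 CPM). *Rel* was at 518 to 807 CPM in conventional dendritic cell-like cells of tumor, at 542 to 677 CPM in an unnamed tumor cluster (the higher of the pair in both control groups) and at 43.7 to 53.0 CPM in fibroblast-like cells. That unnamed cluster had a median of 1462 UMIs per cell, against 7293 and 6078 over all kept cells of tumor control and tumor IR. Its median mitochondrial share was 4.72%, so its levels may reflect cells of low quality. A dendritic cell-like cluster of 148 cells led by *Ccl22*, *Ccr7* and *Fscn1* had the highest level of *Rel* (1119 CPM), *Relb* (453 CPM), *Nfkb2* (236 CPM) and *Nfkbib* (355 CPM) among all clusters of both tissues. *Nfkbie* was at 144 to 203 CPM in macrophage-like cells but at 27.3 to 36.4 CPM in fibroblast-like cells.

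**Figure D3:**
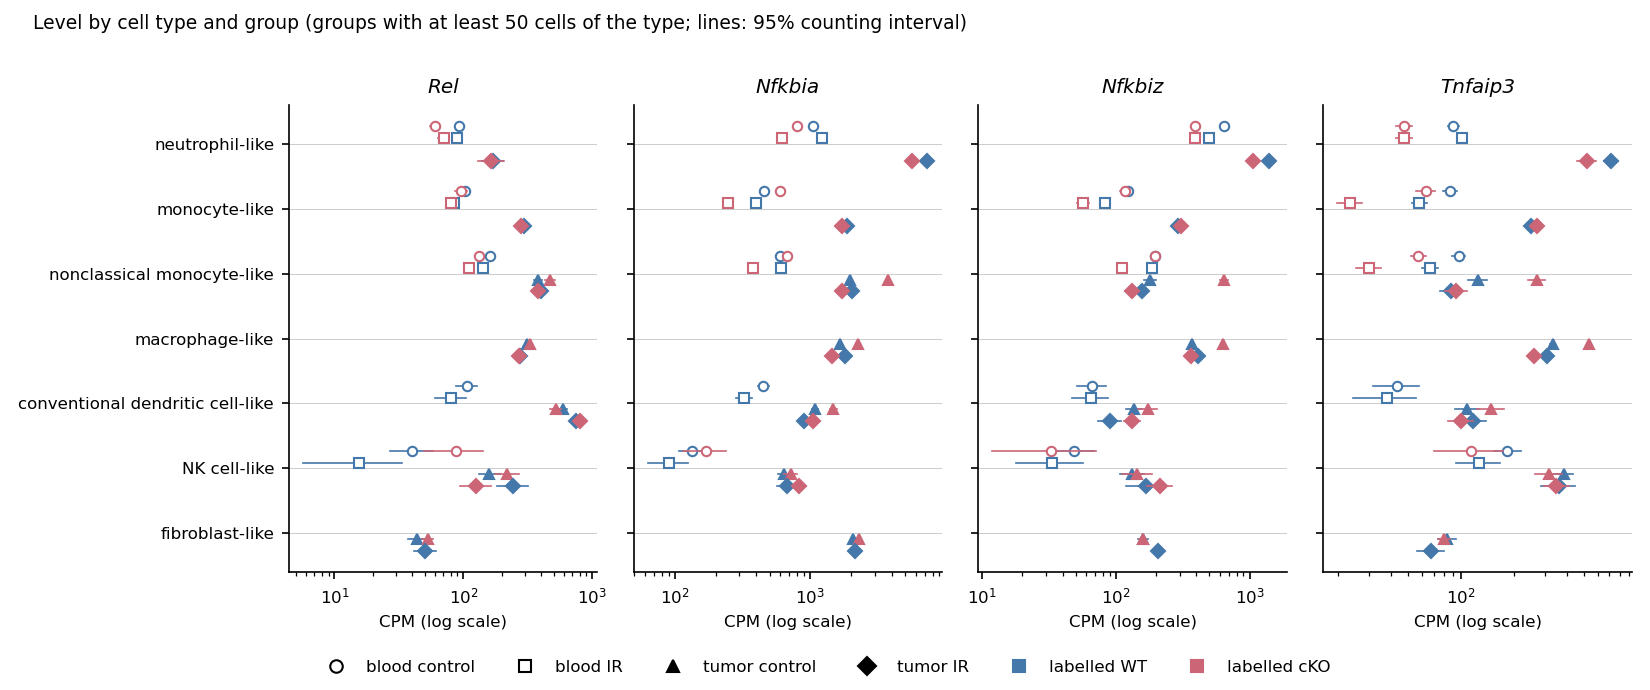
Level of *Rel*, *Nfkbia*, *Nfkbiz* and *Tnfaip3* in CPM (horizontal axis, log scale) by cell type, with 1 point per group of at least 50 cells of the type and lines for the 95% counting interval. Filled points are tumor and open points blood. *Nfkbia* in blood IR cKO (open red squares) lies below blood IR WT in neutrophil-like, monocyte-like and nonclassical monocyte-like cells (614 against 1213, 248 against 399 and 375 against 609 CPM).

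Each log2 ratio was then split into the part seen when the share of each type was held at the mean of both groups (within types) and the remainder (mix). In blood the mix part lay between −0.13 and 0.07 for all 10 members. For cKO against WT after IR, the within-type part was −1.16 of −1.19 for *Tnfaip3* and −0.85 of −0.86 for *Nfkbia*, and these 2 members passed 0.5 within types where 2.78% of genes did. For blood control it was −0.74 of −0.78 for *Tnfaip3*, the one member past 0.5 where 6.61% of genes were. For IR against control in cKO blood it was −0.69 of −0.74 for *Nfkbia* and −0.68 of −0.70 for *Tnfaip3*, 2 members where 6.21% of genes passed, and in WT blood no member passed where 4.8% did.

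In tumor the mix weighed more. For IR against control in cKO, *Nfkbie* split into 0.23 within types and 0.51 from the mix. *Tnfaip3*, *Nfkbiz* and *Nfkbia* had within-type parts of −1.01, −0.90 and −0.64 against mix parts of 0.31, 0.28 and 0.11, so the 2 parts had opposite signs. These 3 passed 0.5 within types where 18.7% of genes did. Without the fibroblast-like cells the whole-group values were 0.39 for *Nfkbie*, −1.08 for *Tnfaip3*, −0.94 for *Nfkbiz* and −0.58 for *Nfkbia*. For cKO against WT in tumor control, *Nfkbiz* split into 0.80 within and −0.07 mix, *Tnfaip3* into 0.65 and −0.07, and *Nfkbie* into −0.20 and −0.29, with 2 members past 0.5 within types where 6.84% of genes were. No member passed within types for WT tumors after IR, where 9.99% of genes did, or for cKO against WT in tumor IR, where 2.42% did.

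**Figure D4:**
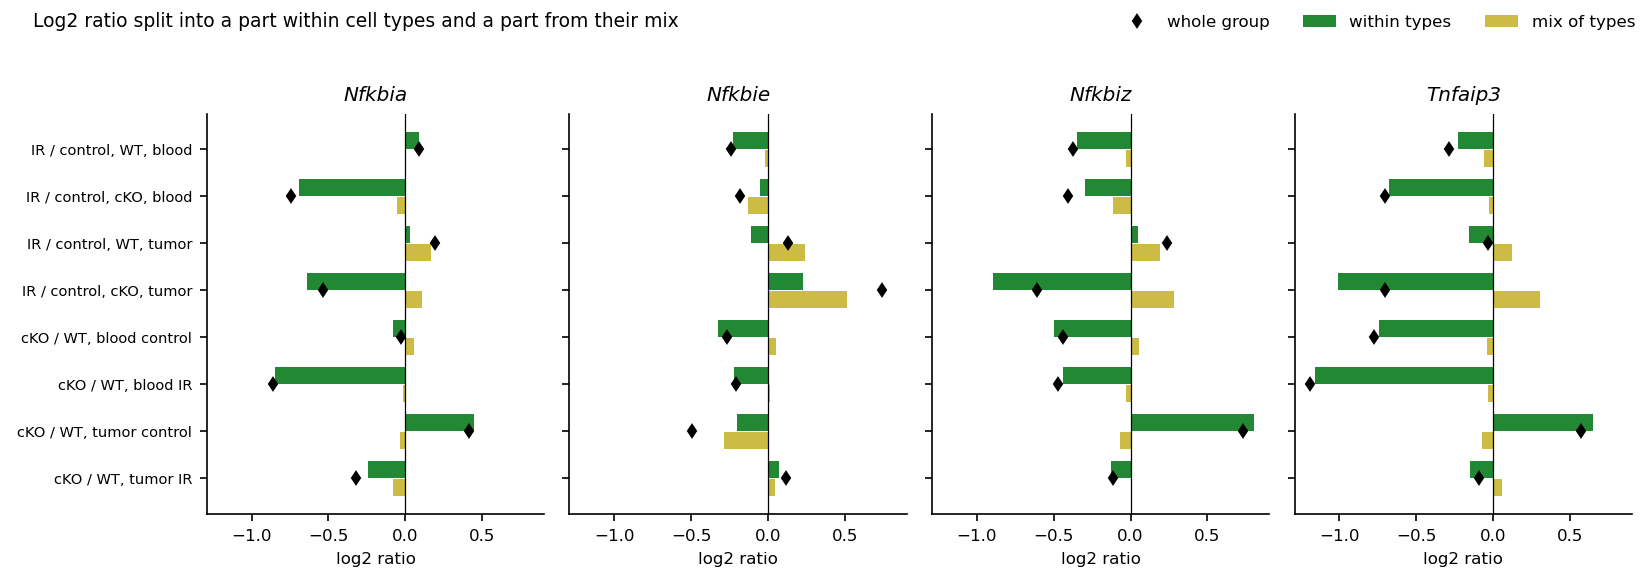
Log2 ratio of *Nfkbia*, *Nfkbie*, *Nfkbiz* and *Tnfaip3* (horizontal axis) in 8 comparisons, with green bars for the part within cell types, yellow bars for the part from the mix of types and diamonds for the whole-group value. For *Nfkbie* in cKO tumors the mix part (0.51) exceeds the within-type part (0.23), whereas for *Tnfaip3* the parts have opposite signs (−1.01 within, 0.31 mix).

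Single types of blood gave the following. After IR, *Tnfaip3* was lower in cKO than in WT in neutrophil-like cells (47.6 against 101 CPM, log2 ratio −1.09), monocyte-like cells (23.4 against 58.1 CPM, −1.31) and nonclassical monocyte-like cells (29.8 against 66.9 CPM, −1.16). *Nfkbia* was lower in the same 3 types (−0.98, −0.68 and −0.70), and *Nfkbiz* passed the limit in monocyte-like (−0.53) and nonclassical monocyte-like cells (−0.74). The count of members lower was 2 in neutrophil-like cells where 3.95% of genes passed, 3 in monocyte-like cells where 3.04% did and 3 in nonclassical monocyte-like cells where 4.87% did. At the level of single clusters, *Nfkbia* and *Tnfaip3* were lower in IR cKO than in IR WT in each of the 4 neutrophil-like clusters with at least 50 cells in both groups. *Nfkbia* there was at 529 to 711 CPM in IR cKO and at 982 to 1372 CPM in IR WT.

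Blood control was less even across types. In neutrophil-like cells 5 members were lower in cKO (*Rel* −0.62, *Relb* −0.54, *Nfkbie* −0.90, *Nfkbiz* −0.73, *Tnfaip3* −0.92) where 20% of genes passed. Different clusters held these cells in the 2 groups: a cluster led by *Wfdc21*, *Crispld2* and *Retnlg* had 1078 control cKO and 42 control WT cells, and *Tnfaip3* in it was at 39.3 CPM over all groups. With single clusters in place of types, the within-type part in blood control was −0.62 for *Tnfaip3* and −0.26 for *Nfkbiz*, beside −0.74 and −0.50. In monocyte-like cells 1 member was lower (*Nfkbie*, −0.55) where 4.96% of genes passed, and in nonclassical monocyte-like cells 1 was (*Tnfaip3*, 57.4 against 97.1 CPM, −0.76) where 4.91% did. *Nfkbia* was at 593 CPM in cKO and 454 in WT in monocyte-like cells but at 803 and 1041 CPM in neutrophil-like cells. Within the 3 neutrophil-like clusters with at least 50 cells in both control groups it was at 1006, 1245 and 1033 CPM in cKO and at 936, 1153 and 1153 CPM in WT, and it was at 644 CPM in cKO in the cluster led by *Wfdc21*, so the lower value in neutrophil-like cells as a whole was not seen in each cluster.

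For IR against control in cKO blood, monocyte-like cells had 4 members lower (*Tnfaip3* −1.42, *Nfkbia* −1.26, *Nfkbiz* −1.03 and *Relb* −0.66) where 7.42% of genes passed. Nonclassical monocyte-like cells had 3 lower (*Tnfaip3* −0.94, *Nfkbia* −0.85 and *Nfkbiz* −0.80) where 6.45% passed. In neutrophil-like cells 1 member passed, *Relb*, and it was higher (0.75 [0.41, 1.11]) where 15.4% of genes passed. Here too clusters differed, since the cluster led by *Wfdc21* held 1078 control cKO and 65 IR cKO cells. Within each of the 4 neutrophil-like clusters with at least 50 cells in both groups *Nfkbia* was lower after IR (581 against 1006, 711 against 1245, 639 against 1033 and 354 against 644 CPM), and *Relb* was at 28.1 against 17.7, 28.2 against 23.2, 24.3 against 24.5 and 16.3 against 11.9 CPM. In WT blood, monocyte-like cells had 4 members lower after IR (*Nfkbie* −0.68, *Nfkb2* −0.60, *Nfkbiz* −0.58 and *Tnfaip3* −0.57) where 6.32% of genes passed. Nonclassical monocyte-like cells had 1 (*Tnfaip3*, −0.54) where 5.39% passed, and neutrophil-like cells had none where 6.79% did.

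In tumor, macrophage-like cells of control mice had *Nfkbiz* at 634 CPM in cKO and 370.0 in WT and *Tnfaip3* at 537 and 333 CPM (log2 ratio 0.78 and 0.69), 2 members where 13.7% of genes passed. Nonclassical monocyte-like cells had 4 members higher in cKO (*Nfkbiz* 1.83, *Tnfaip3* 1.11, *Nfkbia* 0.94 and *Nfkbib* 0.54) where 7.64% passed. Most macrophage-like cells of control WT lay in clusters led by *Cdh1*, *Tnip3* and *Spp1* (412 cells) and by *Ly6i*, *Cfb* and *Nos2* (349 cells), and most of control cKO in the former (470) and in one led by *Fcrls*, *Ccl8* and *Folr2* (357). *Nfkbia*, *Nfkbiz* and *Tnfaip3* were higher in cKO in each of the 5 macrophage-like clusters with at least 50 cells in both control groups.

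After IR the cKO macrophage-like cells had *Tnfaip3* at 260.1 CPM, *Nfkbiz* at 366 and *Nfkbia* at 1449, against 537, 634 and 2259 CPM in control cKO (log2 ratio −1.05, −0.79 and −0.64), 3 members lower where 30.9% of genes passed. Nonclassical monocyte-like cells had 5 members lower (*Nfkbiz* −2.28, *Tnfaip3* −1.52, *Nfkbia* −1.12, *Nfkbib* −0.78 and *Relb* −0.58) where 12.6% passed. After IR the macrophage-like cells of both genotypes lay mostly in a cluster led by *Cxcl3*, *Pf4* and *Mmp13* (365 WT and 558 cKO cells) and in the one led by *Ly6i*, *Cfb* and *Nos2* (330 and 449). Tumor types depended on the clustering: with exact nearest neighbours 55.6% of 11609 tumor cells kept their type, and 5162 lay in unnamed clusters in place of 1943. In the macrophage-like cells so defined *Nfkbia* after IR in cKO was at −0.21 and *Tnfaip3* in control cKO against WT at 0.45, both inside the limit. *Nfkbie* passed it there after IR in cKO (1.17), where 49.9% of genes passed, and for cKO against WT in control (−0.63), where 15.5% did. After IR in WT, where 37.1% passed, *Nfkbie* (0.52) and *Rela* (−0.51) were past it, in place of no member. With the mix held fixed, that setting gave 3 members past 0.5 after IR in cKO and 3, in place of 2, for cKO against WT in control.

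The other genes of the pathway were taken as lists. TMM scaling moved their counts in tumors after IR: in cKO tumors the targets went from 5 higher and 5 lower to 8 and 2, and in WT tumors from 11 and 2 to 16 and 1. Of 26 transcriptional targets of NF-κB, 22 to 24 were higher in tumor than in blood in the 4 comparisons, with medians of 2.75 to 3.99, where 25.8% to 41% of all genes were higher. After IR in WT tumors 11 were higher and 2 lower, where 24.9% of all genes passed in either direction. As higher alone, 6.89% of all genes passed there without the barcodes kept in more than 1 library. These targets were led by the chemokine genes *Cxcl3* (1.89), *Ccl4* (1.70) and *Ccl3* (1.67), while *Saa3*, an acute-phase gene, was lower (−1.66). In cKO tumors 5 were higher and 5 lower, a smaller share than the 47.8% of all genes that passed, among them *Nos2*, which encodes inducible nitric oxide synthase (66.1 CPM in control and 338 after IR, 2.35), *Cxcl3* (2.05), *Cxcl1* (−2.19) and *Tnf* (−1.28). In blood after IR, 8 of 20 measured targets were lower in WT and 11 of 20 in cKO, and none was higher in either, where 6.32% and 7.62% of all genes passed.

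Between genotypes, 8 targets were higher and 3 lower in cKO than in WT in tumor control (22.8% of all genes passed), including *Tnf* (1.35), *Il6* (1.25) and *Ccl4* (1.196) as higher and *Saa3* (−1.36) as lower. In tumor IR 1 of 26 was higher (*Nos2*, 0.56) and 1 lower (*Cxcl1*, −0.93) where 5.92% of all genes passed. In blood control 5 of 22 were higher and 8 lower where 8.19% of all genes passed, and in blood IR, where 3.65% did, 1 of 20 was higher (*Saa3*, 2.07) and 5 were lower, among them the neutrophil chemoattractant genes *Cxcl3* (−1.82) and *Cxcl2* (1251 CPM in WT and 439 in cKO, −1.51).

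Of 19 upstream kinases and adaptors, 7 were higher and none lower after IR in cKO tumors, where 47.8% of all genes passed in either direction. Counted without the barcodes kept in more than 1 library, 14.9% of all genes were higher there and 6.89% in WT tumors. The 7 included *Myd88*, an adaptor of Toll-like receptors (1.05), and the kinase genes *Ikbke* (1.04), *Tbk1* (0.81) and *Ripk1* (0.53). In WT tumors, where 24.9% of all genes passed, 2 were higher (*Ikbke* 0.83 and *Myd88* 0.57), in WT blood 1 was (*Ikbke*, 0.83) where 6.32% of all genes passed, and in cKO blood none passed where 7.62% did. Between genotypes at most 1 of the 19 passed in any setting, where 3.65% to 22.8% of all genes did. Of the receptors, 6 of 13 were higher and 1 lower after IR in cKO tumors (*Il1r1* −2.03, *Nod1* 1.73, *Tlr4* 1.13 and *Tlr7* 0.91 were the largest) and 4 of 13 higher in WT tumors, where 47.8% and 24.9% of all genes passed in either direction. *Cd14*, a coreceptor of Toll-like receptors, was lower after IR in blood of both genotypes (−0.96 in WT and −1.27 in cKO).

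Of 16 other negative regulators, *Tnip3* passed the limit most often: it was higher in cKO than in WT in tumor control (0.88) and in blood control (0.91, at 5.55 against 2.92 CPM) and lower after IR in all 4 comparisons (−0.89 and −1.28 in WT and cKO tumor, −0.80 and −1.60 in WT and cKO blood). Over these comparisons 6.32% to 47.8% of all genes passed. Others went the other way: after IR in cKO tumors 4 of 15 measured were higher (*Nlrc5* 1.43, *Tax1bp1* 0.73 and *N4bp1* 0.72 among them) and 1 lower. In WT tumors 1 was higher (*Nlrc5*, 0.94) and 1 lower. In blood after IR none was higher, and 2 of 16 were lower in WT and 1 of 15 in cKO. Of 5 negative regulators that the study discusses, none passed in 5 of the 8 comparisons, and over the 8 comparisons 3.65% to 47.8% of all genes passed; *Tnfaip8l2* was higher after IR in cKO tumors (0.75), and *Smpdl3b* was higher in cKO blood control (0.63) and lower after IR in cKO blood (−0.67). That list was chosen by the study on related samples and is not independent evidence of a direction.

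Across the 49 sums of a type and a group with at least 50 cells, members differed in how alike their levels were. Over these sums, *Rel* and *Nfkbie* had the highest Pearson correlation of log2(CPM + 5) among pairs of members (r = 0.87), and *Nfkbib* and *Nfkbiz* the lowest (−0.07). Among 5565 genes at a mean of at least 20 CPM, those most like *Rel* were *Cd83* (0.90), *Osgin2* (0.90), *Etv3* (0.89), *Gpr132* (0.89) and *Cd86* (0.87), and those most like *Nfkbia* were *Ier3* (0.93), *Ehd1* (0.90), *Tiparp* (0.89), *Maff* (0.88) and *Phlda1* (0.88). The points share libraries and a tissue, and no test was made.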

How the data were processed

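The deposited files held UMI counts per gene and hashtag for every barcode of 4 libraries (10x 3′ chemistry, mm10); per the labels, the authors processed them with Cell Ranger 6.0.1 and Seurat 4.0.6 and deposited counts without normalization. Cells were called from the barcode ranks with a test against ambient RNA (minimum 500 UMIs and 200 genes, at most 25% mitochondrial UMIs, false discovery rate 0.01), the 6% of barcodes with the highest Scrublet scores were removed as doublets, since its automatic threshold marked 0 to 2 per library, and genotypes were read from hashtags. The summed gene UMIs of a group were scaled to a fixed total (CPM). Clusters came from Seurat 5.3.0 (2000 variable genes, 40 components, resolution 0.8). A cluster was named where at least 3 fixed markers of 1 type, more than of any other, were in 25% of its cells and 2-fold higher than elsewhere; these thresholds were set after the data were seen. Scripts were tested on simulated data. Members and lists were chosen with earlier results of these data known. Named are all 10 members, up to 4 genes of each list with the largest ratios past the limit, *Ythdf2*, *Lyz2*, and for *Rel* and *Nfkbia* the 5 genes most like them; cluster leading genes and stress genes were named after their values were seen. Alternatives varied the hashtag rules, cell calling, doublet and mitochondrial filters, TMM scaling (edgeR 4.0.16), cell weighting, the UMI minimum, the clustering and the weights of the types.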

Additional observations from a re-analysis of the deposited data

Results flagged for a closer look

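The difference in *Tnfaip3* between cells labelled cKO and cells labelled WT had opposite directions in the 2 tissues without IR. The log2 ratio was 0.57 in tumor control (371 CPM in cKO and 249 in WT) and −0.78 in blood control (55.3 and 94.8 CPM). Each group is 1 pool, so the difference between the tissues was not tested. In single types of tumor the log2 ratio was 0.69 in macrophage-like and 1.11 in nonclassical monocyte-like cells but −0.27 in NK cell-like and −0.05 in fibroblast-like cells, the last pair with intervals that hold 0. In blood it was −0.92, −0.46, −0.76 and −0.68 in neutrophil-like, monocyte-like, nonclassical monocyte-like and NK cell-like cells. The summed level of the 12 stress-response genes was 7864 CPM in cKO and 6687 in WT in tumor control, and 11120 and 17453 CPM in blood control. Of these genes, 1 was higher and 2 lower in cKO in tumor control, where 22.8% of all genes passed the limit. In blood control 7 were lower, where 8.19% of all genes passed. The part of such genes in the *Tnfaip3* result was not tested.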

How the results depend on the processing

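No paired analysis was possible because each group is 1 pool and the labels give every sample the same replicate number. Leaving out a replicate was likewise not possible. For IR against control in cKO tumors, the 4 members past the limit (1 higher and 3 lower) became 2 with TMM factors (2 higher) and 2 when every cell was weighted equally (2 lower, *Nfkbiz* −0.78 and *Tnfaip3* −0.80). For IR against control in cKO blood the 2 members became 1 with equal weights (*Nfkbia* −0.58, with *Tnfaip3* at −0.43) and, in an alternative added after seeing the data that kept macrophage-like, monocyte-like and nonclassical monocyte-like cells alone, 4. With those cells alone the count was 1 in place of 0 for IR in WT blood (*Tnfaip3* −0.57). For tumor against blood in control cKO, *Nfkb2* turned from 0.56 to −0.050, *Relb* from 0.43 to −0.17 and *Rela* from 0.13 to −0.02. For tumor against blood in control WT, *Nfkbiz* turned from −0.24 to 1.09. With the mix held fixed, cKO against WT in blood control gave 2 in place of 1 member with types by highest marker sum and with the weights of the reference group alone, since *Nfkbiz* lay at −0.53 and −0.50. The cause of these shifts was not tested. The other 213 counts under an alternative stayed within 1.5 times the main count. Reading tumor cells from the other tumor matrix, also added, gave 3 members for IR in cKO tumors and 3 for cKO against WT in tumor control. TMM moved the median over all genes from −0.13 to 0.02 for IR in WT tumors and from 0.23 to 0.07 for tumor against blood in control cKO. Each group is 1 pool, so variation between pools was not measured.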
